A study of Danio rerio with 2 samples.

Results

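The ribosomal protein genes of the zebrafish testis were followed through spermatogenesis, gene by gene and paralog by paralog. A gene was taken as a member when its symbol began with rpl or rps and a number, or with rplp and a number, and kinases of the rps6k family were left out. This rule found 84 genes among the 32520 identifiers of the count matrices. Symbols come from a reference table of gene names, which often holds the name of the human counterpart, and are written here in lower case. Where a pair of identifiers shared 1 symbol, as for rpl5 and rps26, they are called copy 1 and copy 2 in the order of their identifiers.

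The samples were 2 libraries of dissociated testis, replicate 1 and replicate 2, from adult males aged 6 months that received no treatment before anaesthesia. The labels call the fish wild type in one field and transgenic in another, and the methods of the study name the AB/Tübingen strain. The libraries were 2 biological replicates from adult males (n = 2). Cells fell into 7 stages, which were undifferentiated and differentiated type A spermatogonia (SPG-Aun and SPG-Ad), type B spermatogonia (SPG-B), primary and secondary spermatocytes (SPC-I and SPC-II), and round and elongated spermatids (SPT-r and SPT-e). In replicate 1 these labels were the annotation of the study, held for 1999 cells, and in replicate 2 each cell took the label of most of its 15 nearest annotated cells. UMIs, each of which marks 1 captured molecule, were summed over the cells of a stage within each replicate, and the 14 sums held between 693732 and 12884362 UMIs (5973 cells).

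A ribosome is built from a large and a small subunit, each holding ribosomal RNA and many proteins of which most are present in a single copy, so their genes are commonly expressed in step. Protein synthesis is known to be active in mitotic germ cells, and spermatids compact their chromatin and shut down transcription. Several ribosomal proteins have a second gene, and in mammals some of these paralogs are used mainly in the germ line.

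The stage markers of the study were checked first. ddx4, a germ cell RNA helicase, was at 2499 to 2599 CPM in both type A stages of replicate 1 and at 101 CPM in its SPT-r, where CPM is the UMI count relative to the total UMIs of the sum, corrected with TMM factors. sycp3, part of the axis of meiotic chromosomes, was highest in SPC-I. pcna, the other marker given for spermatocytes, was not, with 327 and 195 CPM in SPC-I (replicates 1 and 2) and 1400 and 1364 CPM in SPG-Ad. edrf1, the marker of elongated spermatids, stood at 1086 and 933 CPM in SPT-e, against 15.5 to 73.9 CPM in all other stages. The 3 markers given for SPG-Aun (eno3, e2f5 and ripply2) went against that label, since their summed level was 346 and 358 CPM in SPG-Aun and 1085 and 1058 CPM in SPG-B. Labels hidden in replicate 1 were recovered for 88.2% of cells, with 55.1% in SPG-B as the lowest, and 8 barcodes occurred in both libraries. The recovery lay within replicate 1, so it does not measure the transfer to replicate 2. At least 12 of the 15 neighbours held the label for 229 of 1017 SPG-Aun cells there. It was so for 112 of 377 SPG-Ad and 23 of 194 SPG-B cells. The later stages had 717 of 861 (SPC-I), 189 of 268 (SPC-II), 365 of 409 (SPT-r) and 818 of 848 (SPT-e). When members were allowed among the genes used for the transfer, SPT-r of replicate 2 had 166 cells. Markers of Sertoli cells summed to at most 13.5 CPM in any stage, and those of red blood cells to at most 36.0 CPM. Immune cell markers reached 66.3 CPM (SPT-e, replicate 1). Leydig cell markers reached 299 CPM (SPT-e, replicate 2), of which insl3 made up 275 CPM.

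In replicates 1 and 2, SPG-Aun cells had 27.3% and 25.7% of their UMIs on the members, SPG-Ad cells 26.2% and 24.96% and SPG-B cells 24.3% and 23.3%. SPC-I cells of either replicate had 14.5%, SPC-II cells 6.73% and 8.02%, SPT-r cells 3.22% and 4.64% and SPT-e cells 4.59% and 7.31%. The replicates differed by less than the gap between neighbouring stages from SPG-B to SPT-r, but not between both type A stages. In elongated spermatids they lay far apart, and the mean of 5.95% ± 1.93 (SD, n = 2) was within reach of that in round spermatids (3.93% ± 1.00). The median SPG-Aun cell carried 3020.5 and 3032 ribosomal protein UMIs, the median SPT-r cell 253.5 and 375 and the median SPT-e cell 52 and 64. The 42 genes of the large subunit and the 36 of the small one moved in parallel. The 4 genes of the P stalk, the lateral arm that recruits elongation factors, together held 1.67% ± 0.0570 of UMIs in SPC-I, against 2.12% ± 0.0164 in SPG-B. Within this sum the genes differed. rplp2l had 1973 and 1824 CPM in SPC-I, against 4156 and 3592 CPM in SPG-B, while rplp2 had 2779 and 2998 CPM, against 2791 and 2789 CPM.

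**Figure D1:**
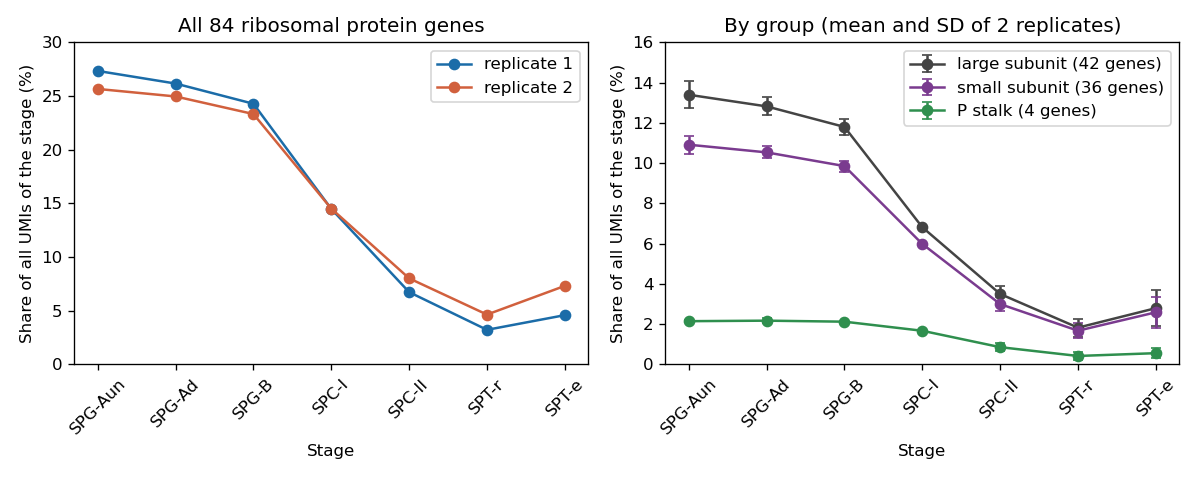
Share of all UMIs of a stage on ribosomal protein genes (%, vertical axes) by stage, in each replicate on the left and by group of proteins on the right as mean and SD of 2 replicates. Shares near 25% in spermatogonia stand against 3.22% and 4.64% in round spermatids, and the replicates part most in elongated spermatids.

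Spermatids (the mean of SPT-r and SPT-e) were compared with type A spermatogonia (the mean of SPG-Aun and SPG-Ad) to find members that left the common course. In the edgeR quasi-likelihood fit, 82 of the 84 members were called lower in spermatids and 2 higher, at an adjusted p (Benjamini-Hochberg) under 0.05 and a log2 fold change over 0.25 in size. Of all 13940 genes tested, 47.1% were called lower and 33.4% higher. The median log2 fold change was -2.39 over the members and -0.52 over all genes, and scaled by cell number these medians were -4.35 and -2.45. The members' median was -2.71 in replicate 1 alone and -1.76 in replicate 2 alone. The medians of the large and small subunits were the same to 2 decimals (-2.40). That of the P stalk was -1.95, over only 4 genes that ran from -3.19 to -0.95. Each of these fell further in replicate 1 alone than in replicate 2 alone, as given below. The typical cell showed the same difference, since the members made up a median of 3.05% and 4.18% of the UMIs of an SPT-r cell (replicates 1 and 2), against 27.6% and 25.8% in an SPG-Aun cell. Under the same rule spermatocytes (the mean of SPC-I and SPC-II) had 81 members lower than in type A spermatogonia and 1 higher, against 39.3% and 33.3% of all genes.

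**Figure D2:**
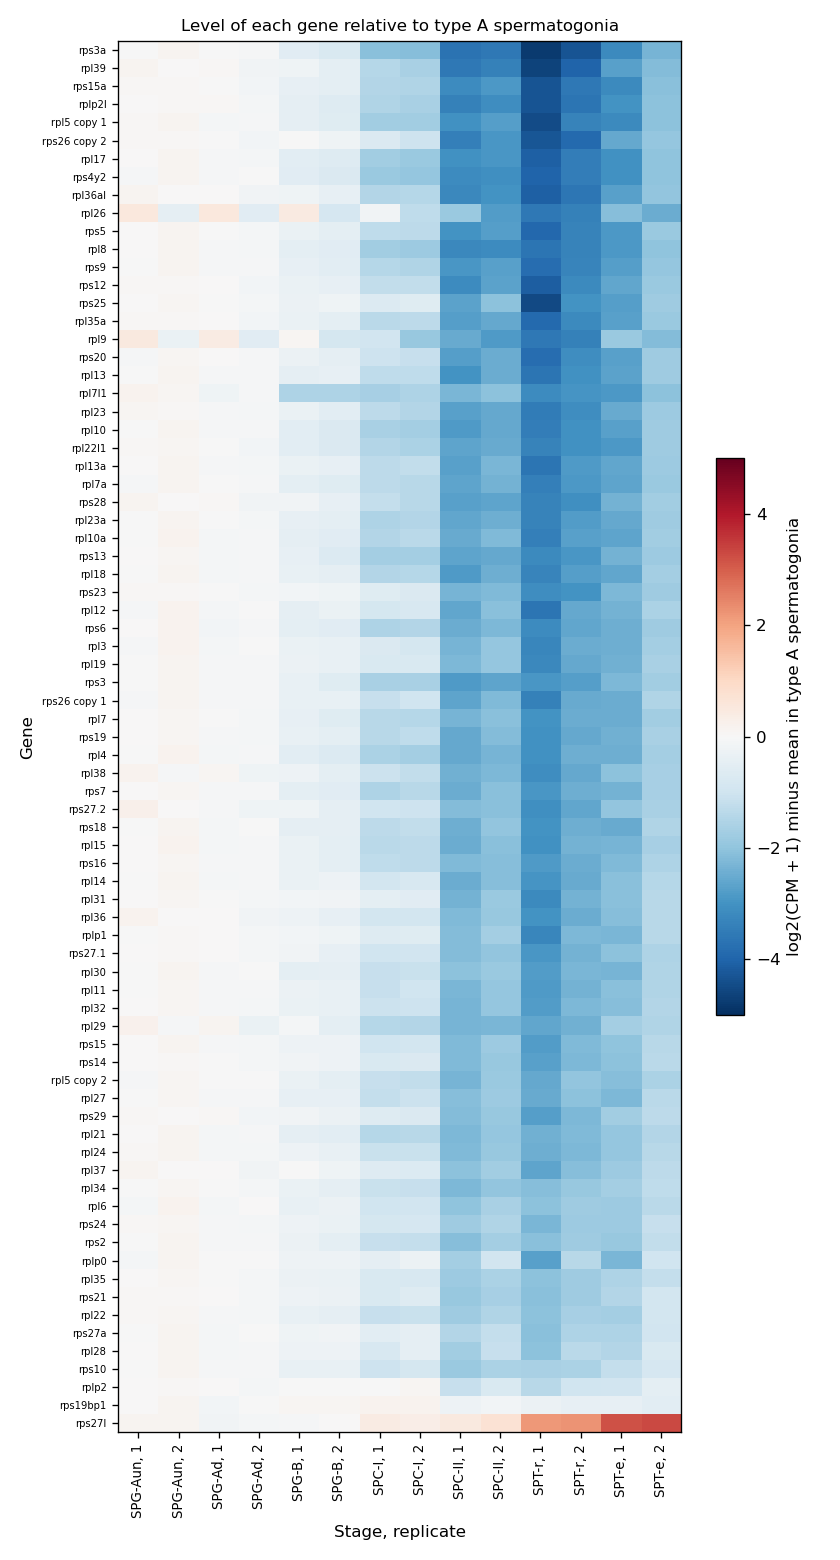
Level of 77 of the genes in each stage and replicate as log2(CPM + 1) minus its mean in type A spermatogonia, ordered by the log2 fold change between spermatids and type A spermatogonia. Blue marks lower and red higher levels, and of the genes drawn only rps27l, at the bottom, is red in spermatids.

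rps27l, a paralog of the small subunit gene rps27 whose human counterpart is known as a target of p53, ran against nearly all others. Its level was 312 and 317 CPM in SPG-Aun (replicates 1 and 2), while SPG-Ad had 255 and 267 CPM and SPG-B 276 and 294 CPM. SPC-I had 377 and 365 CPM, SPC-II 402 and 470 CPM, SPT-r 1291 and 1377 CPM and SPT-e 2635 and 2796 CPM. Every spermatid value lay above every earlier value, and both replicates were close at each stage. The log2 fold change of spermatids over type A spermatogonia was 2.73 ± 0.11 (SE), a fold of 6.65, with an adjusted p of 1.1e-12 in edgeR. The steps from SPC-II to SPT-r (1.61 ± 0.15, edgeR adjusted p = 9.9e-07) and from SPT-r to SPT-e (1.03 ± 0.15, edgeR adjusted p = 0.00012) were both called, and the 4 earlier steps were not.

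Counted per cell, rps27l had 9.99 and 12.1 UMIs in SPT-r, against 4.19 and 4.68 in SPC-II and 3.62 and 3.53 in SPG-Aun. In SPT-e, whose cells carried a median of 1374 and 1356.5 UMIs in all, the count was 3.26 and 3.67 per cell, so that the further gain in elongated spermatids was one of share and not of molecules per cell. Within the pool of ribosomal protein UMIs the gene had rank 1 and 3 of 84 in SPT-e and rank 2 and 6 in SPT-r, against rank 80 and 78 in type A spermatogonia. It held 4.37% and 2.90% of the pool in SPT-e, against 0.104% and 0.106% in type A spermatogonia.

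rps19bp1 showed the weakest fall among the members called lower. It encodes a binding partner of the small subunit protein Rps19, known in mammals as a regulator of SIRT1, and is not a subunit of the ribosome by name. Levels were 118 and 106 CPM in SPT-r and SPT-e of replicate 1, 108 and 98.0 CPM in those of replicate 2, and 132 to 155 CPM in the type A stages. The log2 fold change of -0.42 ± 0.11 (edgeR adjusted p = 0.0026) lost its call under 7 of 13 alternatives, as given with the limits at the end. The 13 include each replicate alone, which had no test and so could not lose the call. Its share of the pool was called higher in spermatids (edgeR adjusted p = 4.8e-07).

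To see which members left the pool rather than the cell, the same test was run with the summed UMIs of all members as the scale. In spermatids 16 members were then called higher and 31 lower than in type A spermatogonia, out of the 84. On this scale 61.9% of all genes were called higher and 8.79% lower. In spermatocytes 15 members were higher and 25 lower within the pool, where 67.6% and 10.4% of all genes were. Those ahead of the pool included rps27l (5.02 ± 0.19), rps19bp1 (1.86 ± 0.21), rplp2 (1.30 ± 0.13), rps10 (0.97 ± 0.14), rpl28 (0.85 ± 0.14), rps27a (0.73 ± 0.13) and rps21 (0.70 ± 0.13), each with SE. The strongest losses of share were those of rps3a (-1.39 ± 0.15), rpl39 (-1.12 ± 0.14), rps15a (-1.02 ± 0.14), rplp2l (-0.99 ± 0.14), rpl5 copy 1 (-0.98 ± 0.18), rps26 copy 2 (-0.91 ± 0.15), rpl17 (-0.88 ± 0.15) and rps4y2 (-0.87 ± 0.15). All of these except rps27l were called lower relative to total UMIs with TMM factors, by unequal amounts.

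**Figure D3:**
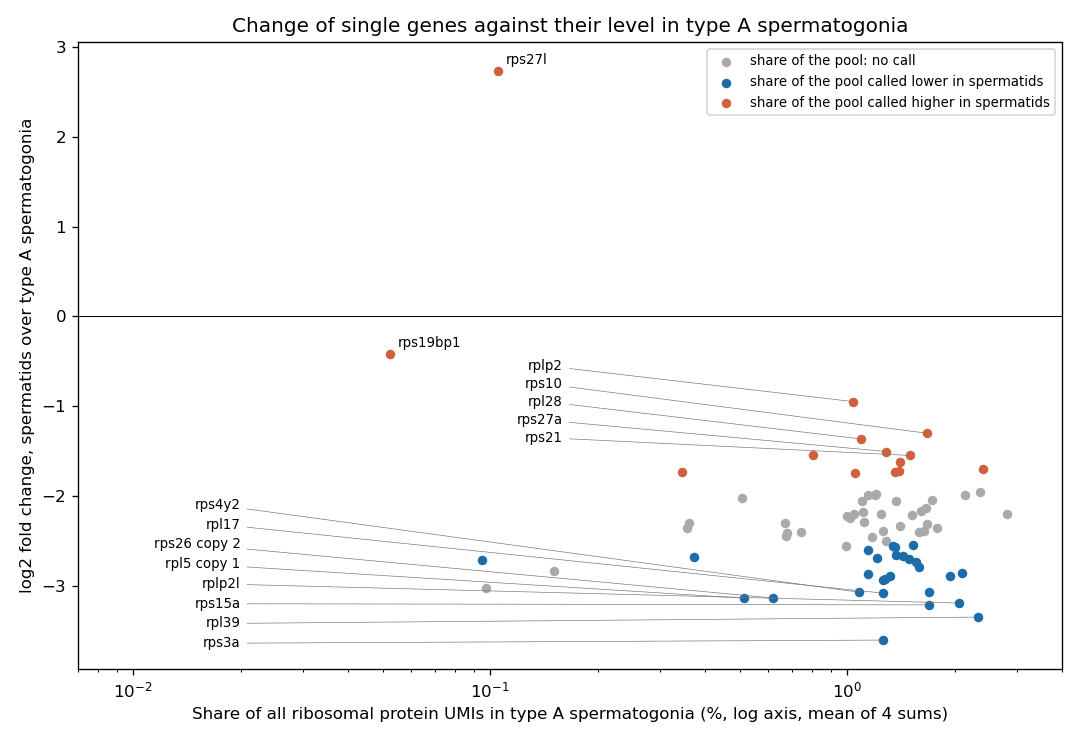
Each point is 1 of 77 genes, placed by its share of ribosomal protein UMIs in type A spermatogonia (%, log axis) and its log2 fold change in spermatids over type A spermatogonia, with the call for its share of the pool as colour. Names mark the strongest departures in each direction, and rps27l at 2.73 is the 1 point drawn above 0.

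rps10, a protein of the head of the small subunit, departed most among the abundant subunit genes after rplp2. Its levels were 1482 and 1547 CPM in SPT-r and 2032 and 2531 CPM in SPT-e (replicates 1 and 2). In the type A stages it had 4356 to 5014 CPM, and in SPC-II 1254 and 1525 CPM. With TMM factors it did not fall further between secondary spermatocytes and round spermatids (0.12 ± 0.16, edgeR adjusted p = 0.60), a step at which the median member stood at -0.49. Without them its share was lower in SPT-r. It had 2544 of 1885267 UMIs there and 1764 of 1081545 in SPC-II of replicate 1, and 5579 of 3953940 and 4068 of 2161893 in replicate 2. Counted per cell, rps10 had 11.5 and 13.6 UMIs in SPT-r, against 13.1 and 15.2 in SPC-II. In round spermatids of replicate 1 rps10 became the most abundant of all members, with 4.19% of the pool, and it had rank 3 in replicate 2.

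rps3a, a small subunit protein, had the steepest fall. It had 122 and 173 CPM in SPT-r and 375 and 688 CPM in SPT-e, against 3290 to 3733 CPM in the type A stages, a log2 fold change of -3.60 ± 0.18 (edgeR adjusted p = 1.5e-11), with -3.97 in replicate 1 alone and -2.98 in replicate 2 alone. It also had the largest drop of any member on entry into SPC-I (-1.43 ± 0.23 against SPG-B). rpl39, a small protein at the wall of the exit tunnel which ranked 3 and 4 in abundance in type A spermatogonia, followed with -3.35 ± 0.17 (-3.78 in replicate 1 alone and -2.63 in replicate 2 alone). Its levels were 252 and 399 CPM in SPT-r and 954 and 1417 CPM in SPT-e, against 5542 to 6883 CPM in the type A stages. By rank it was at place 59 and 53 of 84 in SPT-r and at place 18 and 23 in SPT-e.

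The 5 most abundant members in type A spermatogonia were rplp1, rpl37, rpl39, rplp0 and rps29. In spermatids their log2 fold changes ran from -3.35 for rpl39 to -1.69 ± 0.27 for rplp0. rplp0, the protein that anchors the P stalk to the large subunit, had 4846 and 5348 CPM in SPC-I, against 5482 and 5559 CPM in SPG-B (-0.11 ± 0.38, edgeR adjusted p = 0.84). By its mean share of the pool over SPC-I and SPC-II it had rank 1 in both replicates. In SPC-I of replicate 1 alone, rplp1 was higher (4891 CPM). For rplp0 the replicates then parted, with 993 and 2515 CPM in SPT-r and 1352 and 3298 CPM in SPT-e. In replicate 1 alone the log2 fold change in spermatids was -2.45 and in replicate 2 alone it was -0.88, with no test. rplp1, which pairs with Rplp2 in the stalk, changed by -2.20 ± 0.21, with -2.78 in replicate 1 alone and -1.43 in replicate 2 alone.

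Across the pool the order of members was kept to a large extent and shifted by degrees. As a description over the 84 genes, which share libraries and depth and are not independent, the correlation of log2 shares with those in type A spermatogonia was 0.995 and 0.992 for SPG-B, 0.966 and 0.963 for SPC-I, 0.930 and 0.928 for SPC-II, and 0.826 and 0.854 for SPT-r. For SPT-e it was 0.868 and 0.918, above that of SPT-r. Between replicates of the same stage it ran from 0.984 to 0.995.

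Next, each stage was compared with the one before it to find where the fall took place. None of the 84 members was called between SPG-Ad and SPG-Aun, where 0.222% of all genes were lower and 0.646% higher. In SPG-B 2 members, rpl7l1 among them, were called lower than in SPG-Ad and none higher (16.9% and 7.16% of all genes). With replicate as a block 12 were lower, where 2977 of all 13940 genes were. In SPC-I 62 members were lower than in SPG-B and none higher (12.8% and 20.5% of all genes) and the median member stood at -0.79, while all genes had a median of 0.17. In SPC-II 79 were lower than in SPC-I and none higher (16.7% and 16.6% of all genes), and the medians were -1.12 and -0.03. With TMM factors, the drop into SPC-II was the deepest of all steps for 64 members, that into SPC-I for 17 and that into SPT-r for 0. Without these factors, the members together held 14.5% of all UMIs in SPC-I of either replicate and 6.73% and 8.02% in SPC-II. They held 3.22% and 4.64% in SPT-r, so on that scale the drop into SPT-r was about as deep as that into SPC-II. Scaled by cell number the order of the steps did not hold, as the median member then changed by -0.98 on entry into SPG-B and by -1.06 at the SPC-I step. All genes had medians of -0.89 and -0.08 there. SPC-II gave a member median of -0.69 against SPC-I, SPT-r one of -0.78 against SPC-II, and SPT-e one of -1.79 against SPT-r. All genes had 0.39, -0.39 and -2.66 at these steps, so in SPT-e the median member fell less than that of all genes.

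The 22 members without a call at the entry into SPC-I included rplp0, rplp1 and rplp2 of the stalk, rps27a, rps21, rpl28, rpl31, rps14, rps25 and rps29. Lack of a call did not mean a kept level. rps14 had 2795 and 2845 CPM in SPC-I, against 4183 and 3930 CPM in SPG-B, and rps29 had 3756 and 3522 CPM, against 5229 and 4773 CPM. rplp2 was at 2779 and 2998 CPM in SPC-I, against 2791 and 2789 CPM in SPG-B (0.05 ± 0.19, edgeR adjusted p = 0.86), and then dropped by 0.98 ± 0.19 on the log2 scale into SPC-II (edgeR adjusted p = 0.00096). At that step rpl22, rplp0, rps19bp1 and rps27l were among the few without a call. Even so, rplp0 was lower in both replicates, with 2023 and 3355 CPM in SPC-II, against 4846 and 5348 CPM in SPC-I. The same held for rpl22, with 635 and 765 CPM against 976 and 1016 CPM, while rps27l was slightly higher in SPC-II. rpl7l1, a paralog of the large subunit gene rpl7, showed the larger drop of the members called in SPG-B. It had 88.3 and 88.9 CPM in SPG-B, against 222 and 247 CPM in SPG-Ad (-1.40 ± 0.20, edgeR adjusted p = 0.00012).

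In SPT-r 24 members were lower than in SPC-II (14.3% of all genes) and 2, rps27l among them, were higher (18.7%). This count was unstable, as it was 53 with replicate as a block, 5 when cells with over 3 times the median UMIs of their stage and replicate were left out, and 2 without called doublets. Of all genes, 2443 of 13940, 1682 of 13709 and 1685 of 13925 were lower under these settings. The median of the members was -0.49.

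In SPT-e 70 members were called higher than in SPT-r and none lower, against 14.2% and 13.6% of all genes, and the median member stood at 0.92 where that of all genes was -0.00026. A few cells held much of the signal. In SPT-e 7 of 426 cells in replicate 1 and 30 of 848 in replicate 2 had over 3 times the median UMIs of their stage. They held 24.96% and 47.3% of the ribosomal protein UMIs of SPT-e, and these genes made up 11.1% and 16.1% of their UMIs, against 3.84% and 4.91% in the other SPT-e cells and 3.10% and 4.68% in the other SPT-r cells. Without such cells 27 members were called higher, where 12% of all genes were, and without called doublets 35, where 1709 of 13925 genes were. Per cell the direction was opposite, since 83 members were lower in SPT-e than in SPT-r when the number of cells was the scale. On that scale 11376 of all 13940 genes were lower too, with a median of -2.66, against -1.79 for the members. With DESeq2-type size factors in edgeR 79 members and 2726 of all genes were higher and 1259 genes lower, against 1979 genes higher and 1900 lower with TMM.

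Markers of earlier cells moved with the members at this step. ddx4 and piwil1, genes of spermatogonia, summed to 609 and 952 CPM in SPT-e, against 286 and 366 CPM in SPT-r, and sycp3 and pcna to 914 and 848 CPM, against 477 and 441 CPM. The Leydig cell list summed to 118 and 299 CPM in SPT-e, against 81.6 and 116 CPM in SPT-r. Most of this was 1 gene, insl3, with 108 and 275 CPM in SPT-e and 72.8 and 109 CPM in SPT-r. Each other gene of the list had at most 13.5 CPM in these stages. The part of free RNA, doublets or mislabelled cells in the rise of the members was not tested. When the cells of high UMI count were left out, the correlation of the pool with type A spermatogonia was 0.830 and 0.857 for SPT-e and 0.812 and 0.855 for SPT-r.

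**Figure D4:**
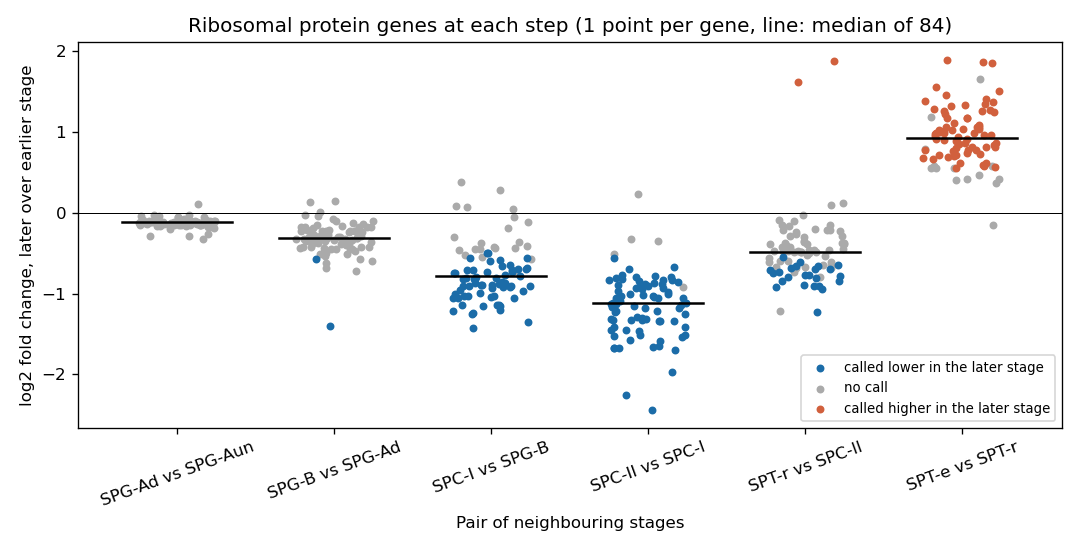
log2 fold change of each of the 84 genes between neighbouring stages, later over earlier, with colour for the call and a line at the median. The medians run from -0.12 at the first step to -1.12 between SPC-II and SPC-I and to 0.92 between SPT-e and SPT-r.

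Paralogs were then compared within families. The members held 9 families with 19 genes, and the other 65 genes stood alone. Each UMI counts 1 molecule from its 3′ end, so shares within a family needed no scaling by length. Each stage gives 2 shares and no test was made. Where copies are near-identical, reads can be assigned to the wrong copy or lost, so that the split between copies that share a symbol is uncertain.

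In the rps27 family the leading gene changed. rps27l made up 7.08% and 7.31% of the family in SPG-Aun. SPC-I gave 16.5% and 15.8%, SPC-II 32.2% and 32.9%, SPT-r 72.4% and 66.0% and SPT-e 73.7% and 68.4%. rps27.1, the main gene of spermatogonia, held 21.1% and 26.3% in SPT-r and 66.3% and 69.6% in SPG-Aun. rps27.2 held 6.50% and 7.73% in SPT-r, against 26.7% and 23.1% in SPG-Aun. Relative to total UMIs with TMM factors, the gain of rps27l came both from its own rise and from the fall of rps27.1 (-2.20 ± 0.15, or -1.59 in replicate 2 alone) and rps27.2 (-2.30 ± 0.14, or -1.65 in replicate 2 alone). Counted per cell, rps27l rose over type A spermatogonia in SPT-r, while in SPT-e it lay close to them. The family shares in SPT-r and SPT-e did not overlap those of any earlier stage.

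In the rplp2 family the order of both genes was exchanged. rplp2 took 33.8% and 33.5% of the family in SPG-Aun, 40.2% and 43.7% in SPG-B, and 58.5% and 62.2% in SPC-I. SPC-II gave 70.1% and 72.1%, SPT-r 79.7% and 75.9%, and SPT-e 67.4% and 59.6%. rplp2l had the remainder, fell early (-1.03 ± 0.26 into SPC-I, edgeR adjusted p = 0.0058) and was at -3.19 ± 0.20 in spermatids, against -0.95 ± 0.13 for rplp2. Both genes were lower in spermatids, but the order had changed by SPC-I. There rplp2 had 2779 and 2998 CPM, against 2791 and 2789 CPM in SPG-B, so in CPM only rplp2l had fallen at that step. The log2 fold change of rplp2 in spermatids was -1.20 in replicate 1 alone and -0.37 in replicate 2 alone, and that of rplp2l -3.70 and -2.46, with no test. Without cells of high UMI count rplp2 held 70.2% and 71.9% in SPT-e.

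rpl22 and rpl22l1, a pair of RNA-binding large subunit paralogs, moved the same way but less far. rpl22 had 83.9% and 84.6% of the pair in SPT-r, against 68.4% and 68.0% in SPG-Aun, with log2 fold changes of -1.55 ± 0.15 for rpl22 and -2.68 ± 0.18 for rpl22l1 in spermatids. In replicate 2 alone these were -0.94 and -2.04. No replicate of SPC-II or a later stage overlapped one of an earlier stage.

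Among copies that share a symbol, rpl5 copy 2 passed copy 1. It had 79.2% and 72.1% of rpl5 UMIs in SPT-r, against 48.1% and 48.9% in SPG-Aun. Rpl5 is the protein that carries the 5S RNA into the large subunit. In SPT-e the share of rpl5 copy 2 was 67.2% and 58.0%, closer to that of spermatogonia than in SPT-r. Without cells of high UMI count it was 68.2% and 66.0% in SPT-e and 80.5% and 72.3% in SPT-r.

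rps26 copy 1, of a protein at the mRNA exit of the small subunit, had 79.1% and 84.3% of its pair in SPT-r, against 65.2% and 68.3% in SPG-Aun. SPT-e gave 68.2% and 73.2% and SPC-I 60.1% and 67.5%. Without cells of high UMI count rps26 copy 1 held 74.1% and 80.7% in SPT-e and 80.3% and 84.2% in SPT-r. Copy 2 dropped most sharply into SPC-II (-2.25 ± 0.23, edgeR adjusted p = 3.4e-06). rpl7l1 held 2.55% and 2.94% of the rpl7 pair in SPG-B, against 6.12% and 5.48% in SPG-Aun, and was between 3.91% and 5.67% afterwards.

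**Figure D5:**
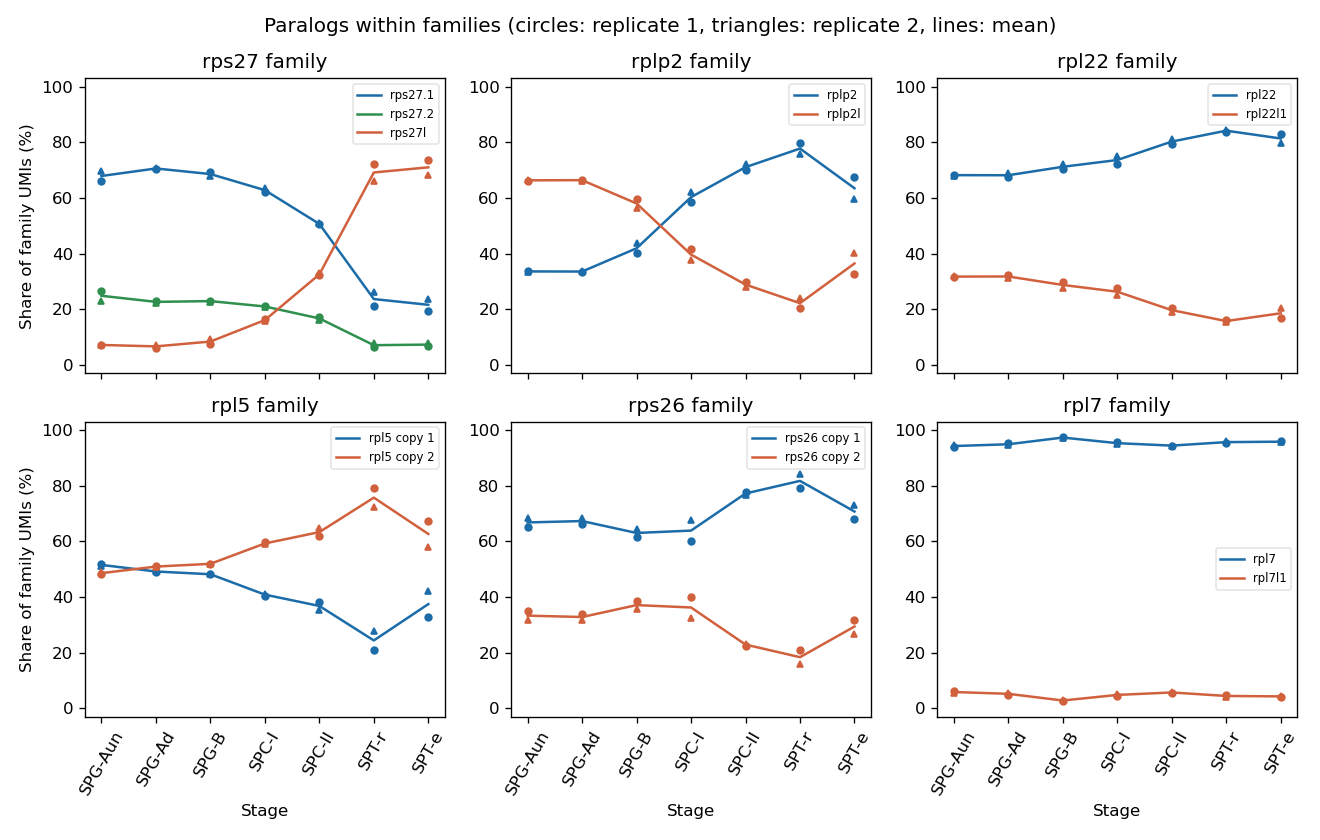
Share of each paralog in the UMIs of its family (%, vertical axes) by stage for 6 families, with circles for replicate 1, triangles for replicate 2 and lines for the mean. The rps27, rplp2 and rpl5 panels show the leading gene changing, and the rpl22, rps26 and rpl7 panels do not.

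Genes that work with ribosomal proteins gave a frame for these values, in spermatids against type A spermatogonia, where 47.1% of all genes were called lower and 33.4% higher. Of 4 cytosolic subunit genes that the naming rule missed, all 4 were called lower, among them rack1 (-3.09), fau (-2.81) and faub (-1.84). Of 16 matched genes whose mammalian counterparts carry the 5′ TOP motif of ribosomal protein mRNAs, 15 were lower, with a median of -2.14, and the exception was pabpc1b, a poly(A)-binding protein, which was higher (1.86 ± 0.12). Of 75 mitochondrial ribosomal protein genes 64 were lower and 3 higher, with a median of -1.87. Of 10 chaperones that escort single ribosomal proteins 7 were lower, led by grwd1 (-3.80), the chaperone of Rpl3. tsr2, the escort of Rps26, averaged 76.5 CPM in spermatids and 76.4 CPM in type A spermatogonia (-0.03 ± 0.16), and heatr3 and nap1l1 had no call either. In SPG-B 7 of these 10 chaperones were lower than in SPG-Ad, where 16.9% of all genes were, and the difference from the members was not tested.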

How the data were processed

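The authors prepared 10x Genomics 3′ libraries and counted reads on danRer11 with Cell Ranger (7.2.0 in the submitters' processing notes, 6.1.2 in the file headers). The deposited values are raw UMI counts per gene and barcode, 34153824 in replicate 1 and 52845050 in replicate 2. Cells with 200 to 7000 genes and at most 5% mitochondrial UMIs were kept by the limits of the study (3018 and 5104 cells). No doublets were removed. Replicate 2 was labelled by 15 neighbours in 30 principal components of 2000 variable genes without the members, lists and markers, and 945 of its cells, in 2 of 13 clusters with hardly any cell of replicate 1, and 185 nearest to unannotated cells got no stage. Replicate 1 had 907 passing cells outside the range of the available annotation and 112 within it but not in it, none of which enters a comparison.

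Counts were summed per stage and replicate and fitted with edgeR 4.0.16 (filterByExpr, TMM, stage as the only term, all 14 sums, Benjamini-Hochberg over 13940 genes). All 84 members passed the filter. SE is the log2 fold change over the root of F. The model was tested on simulated data, with sums drawn independently, the same relative spread for every gene and few genes changed. That setting is simpler than these data, so it does not show how the fit behaves on them. Each replicate is 1 library, so p-values measure the spread between 2 libraries, and intervals over cells were not used. Sums with the same replicate number come from the same library, and their deviations from the stage means correlated in each of 21 pairs of stages (0.11 to 0.41), so a fit with replicate as a block was run beside the main one. Other alternatives were DESeq2 1.42.0, other size factors, filters and labels, and Scrublet calls in scanpy 1.11.5. Named are the members not called lower, all paralogs, the 8 strongest departures from the pool each way and the 5 most abundant, except some that are not reported here, which stay in all counts and medians, and a few more were chosen after their values were seen. No sequences were available, so a planned search of promoters was not run. The members, lists and rules were chosen with earlier results of these data known.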

Additional observations from a re-analysis of the deposited data

Results flagged for a closer look

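Ribosomal protein UMIs also appeared in cells that have no stage and enter no comparison. They made up 18.9% of UMIs in the 945 cells of replicate 2 whose clusters held hardly any cell of replicate 1. The share was 25.7% in the 112 cells of replicate 1 that lay within the range of the annotation without being in it, and 25.9% in the 185 cells of replicate 2 nearest to those. All 3 values lie above the share in any spermatocyte or spermatid sum.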

How the results depend on the processing

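In spermatids against type A spermatogonia, the count of members called lower stayed within 1.5 times under every alternative run. Scaled by cell number, 1 member was called higher there and 0 in spermatocytes, against 2261 and 3219 of all 13940 genes. The log2 fold change of rps27l in spermatids lay between 0.76 and 3.11 over 13 alternatives. The scale of cell number moved the median of all genes to -2.45, against -0.52 with TMM, -0.22 with DESeq2-type size factors in edgeR and -0.20 in DESeq2. It also gave 79 members lower in SPG-B than in SPG-Ad, where 6560 of all 13940 genes were. In SPC-II 42 were lower than in SPC-I and 1 higher, against 1178 and 4026 genes. In SPT-r 58 were lower than in SPC-II and 1 higher, against 3257 and 1923 genes. In SPT-e 83 were lower than in SPT-r and 0 higher, against 11376 and 220 genes. The median member became -1.79 there, where all genes had -2.66. For SPG-Ad over SPG-Aun these medians became 0.22 and 0.29. For rps19bp1 the log2 fold change in spermatids without a call was -0.12 with DESeq2-type size factors and in DESeq2, -0.14 with no filter, -0.17 with at least 12 of 15 votes or a mitochondrial limit of 10%, -0.24 without doublets and -0.25 without cells over 3 times the median UMIs.

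With replicate as a block, 12 members were lower in SPG-B, 1 was higher in SPC-I and 53 were lower in SPT-r than in the stage before, and the block changed no other count by over 1.5 times. Of all 13940 genes 2977, 3359 and 2443 had these calls. In SPG-B the count of lower members was 8 with transferred labels in both replicates, and 1 with DESeq2-type size factors, in DESeq2, with no filter, with 12 votes, with members among the variable genes, without doublets, with the 10% limit and without cells of high UMI count. Between 1368 and 2504 of all genes were lower under these settings. DESeq2 called 1 member higher in each of SPG-B, SPC-II and SPT-r, and transferred labels gave 1 higher in SPC-I. Of all genes 1503, 2389, 2776 and 2948 were higher there. In SPT-r the lower members numbered 6 with members among the variable genes or the 10% limit, 2 without doublets and 5 without cells of high UMI count, and 1 was higher with 12 votes, members among the variable genes or the 10% limit. Of all genes 941, 1755, 1685 and 1682 were lower under these settings in turn, and 2633, 1745 and 2595 higher. In SPT-e 35 were higher without doublets and 27 without cells of high UMI count, against 1709 and 1643 of all genes. Within the pool, no filter gave 15 lower and 9 higher members in spermatocytes, against 25 and 15.

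The share of members in SPC-I was 14.7% with transferred labels, 14.5% without doublets, 14.6% without cells of high UMI count, 13.9% as the median over cells and 14.8% without mitochondrial UMIs. With transferred labels in both replicates, type A spermatogonia gave family shares of 33.7% for rplp2, 94.6% for rpl7 and 50.1% for rpl5 copy 1. Without doublets, spermatids gave 85.4% for rpl22 and 79.9% for rps26 copy 1. Without cells of high UMI count, spermatids gave 74.8% for rplp2, 85.1% for rpl22, 95.5% for rpl7 and 79.8% for rps26 copy 1, and type A spermatogonia 33.7% for rplp2. Leaving out cells of high UMI count, for all results, and doublets, for paralog shares, were alternatives chosen after seeing the data. The causes of these shifts were not tested. With 1 library left, a replicate alone gives no test. Free RNA was not removed, and 3′ reads do not separate near-identical copies.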

Other observations

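A pair of large subunit genes differed between the replicates. rpl26 had 358, 361 and 340 CPM in SPG-Aun, SPG-Ad and SPG-B of replicate 1, against 181, 166 and 138 CPM in those of replicate 2. rpl9 had 548, 527 and 418 CPM in the same stages of replicate 1, against 311, 263 and 214 CPM in replicate 2. These were the 2 members of 84 whose median log2 ratio of replicate 2 over replicate 1 in spermatogonia was over 0.5 in size (-1.12 for rpl26 and -0.96 for rpl9), where the median member stood at -0.01. Both were lower in replicate 2 in 6 of 7 stages. They were chosen after their values were seen, no test was made with 1 library a side, and the cause was not tested.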
